A study of Bombus terrestris with 8 samples.

Results

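The accessible chromatin of whole larvae and of whole adult workers of *Bombus terrestris*, the buff-tailed bumblebee, was compared through the ATAC-seq peak lists of 4 samples, 2 of pooled worker larvae and 2 of individual adult workers. Distinct peak intervals of the 4 lists were joined where they shared at least 1 bp, which gave 37890 regions, against 63245 regions when the lists of all 8 samples of the 4 developmental stages were joined in the same way. A region with an interval in all 4 lists is called kept, a region with an interval in both larval lists and in no adult list lies on the larva side, and a region with an interval in both adult lists and in no larval list lies on the adult side. By this rule 8972 regions were kept, 610 lay on the larva side and 9706 on the adult side, and the other regions had an interval in only part of a stage's lists. The larvae were C-shaped and were pooled from several colonies to about the volume of an adult bee, so a larval replicate is a pool whose number of animals is not given. An adult replicate was a single worker with dense hair that could flap its wings, of unstated age. All samples were frozen whole bodies, with no treatment. Their tissues could not be checked against marker genes, since gene positions of the Bter_1.0 assembly on which the peaks were called were not used here.

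Bumblebees are holometabolous insects, in which a feeding larva is rebuilt in the pupa into a winged adult with a new set of muscles, sense organs and cuticle. ATAC-seq uses a transposase that cuts DNA where it is not wrapped tightly around nucleosomes, and promoters, enhancers and other regulatory elements are usually open in this sense in the cells that use them. In a whole body, a region that is open in more cells and a region that is more open in each cell cannot be told apart. An interval that is missing from a list also does not show closed chromatin, because a peak caller reports only what exceeds its threshold in that library.

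The larval lists were shorter than the adult lists. Larva replicates 1 and 2 had 17073 and 12331 distinct intervals, and adult replicates 1 and 2 had 27135 and 31548. The means were 14702 ± 3353 (SD, n = 2) and 29342 ± 3120 (SD, n = 2), an adult mean 1.996 times the larval one, and the groups did not overlap. With 2 samples against 2, the exact two-sided permutation test cannot give a p below 0.333, the value found here. Bter_1.0 has 18 chromosomes and many contigs without a chromosomal position, here called unplaced. Intervals on unplaced contigs made up 31.1% and 36.1% of the larval lists but 22.6% and 21.3% of the adult lists (exact permutation p = 0.333).

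The depth behind the peaks also differed between the stages. For each summit the lists hold the fold enrichment, which is the pileup of reads over the summit divided by the local background of the same library, and −log10 of its p-value. Together these 2 values fix a whole number of reads for at least 99.9% of the summits of every list. The lowest background, against which 48.9% to 52.4% of the larval and adult summits were scored, was 6.41 and 4.35 reads per 200 bp in larva replicates 1 and 2, and 9.04 and 18.2 in adult replicates 1 and 2. This corresponds to 6.96 and 4.72 M reads used for peak calling in the larva and 9.80 and 19.8 M reads in the adult. By this measure both larval libraries were shallower than both adult ones, and adult replicate 2 was the deepest of the 8 libraries. The measure is inferred from the scores of the peaks and is not the number of mapped reads, which the study gives as larger for every library and as highest for a larval one. At the lowest background, the smallest fold enrichment that was called was 2.16 and 2.43 in the larval lists and 1.89 and 1.67 in the adult lists. Regions of low fold enrichment could therefore be called in the adult and not in the larva.

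Placed chromosomes and unplaced contigs gave different pictures. On placed chromosomes, 5399 of 30123 regions (17.9%) were kept, 8587 (28.5%) lay on the adult side and 419 (1.39%) on the larva side, so that the adult side was 20.5 times as large as the larva side. On unplaced contigs, 3573 of 7767 regions (46%) were kept, 1119 (14.4%) lay on the adult side and 191 (2.46%) on the larva side, a ratio of 5.86. Over all contigs the shares were 23.7% kept, 25.6% on the adult side and 1.61% on the larva side. Seen from the larva, 88.7% of the 6090 placed regions with an interval in both larval lists had one in both adult lists as well, and 6.88% had none in the adult. Seen from the adult, 30.8% of the 17510 placed regions with an interval in both adult lists had one in both larval lists, and 49.0% had none in the larva. Another 3524 placed adult regions had an interval in a single larval list, which was the list of larva replicate 1 in 3063 cases and that of larva replicate 2, the shallower library, in 461. The placed ratio was 10.3 without larva replicate 1, 4.87 without larva replicate 2, 29.6 without adult replicate 1 and 18.9 without adult replicate 2. The classes come from a single set of 4 lists, so these counts have no replicate error and were not tested.

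The size of the adult side depended on the length of the lists, while its excess on placed chromosomes did not vanish in any setting that was run. When every list was cut to its 12331 intervals of highest −log10 p, the length of the shortest list, 1691 placed regions lay on the adult side and 792 on the larva side, a ratio of 2.14, and 4055 were kept. With the 7875 strongest placed intervals of every list, a setting added after the data were seen, the sides held 1342 and 880 regions, a ratio of 1.52. In the latter setting 6538 placed regions were shared by both adult lists and 5174 by both larval lists, so the adult replicates agreed on more regions at equal list length. On unplaced contigs the order of the sides turned at equal list length, with 645 regions on the larva side and 223 on the adult side. This cut ran over all contigs, and unplaced intervals made up more of the larval lists, so the placed and unplaced counts are linked. It left 3765 unplaced regions with both larval lists and 3211 with both adult lists. Equal numbers of unplaced intervals were not run.

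**Figure D1:**
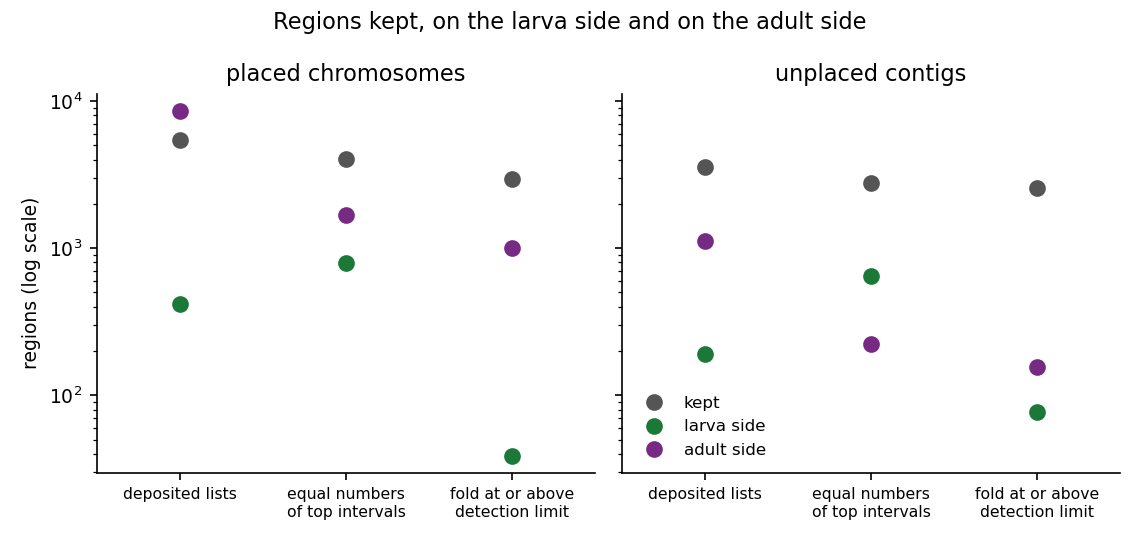
Number of regions (log scale) that were kept, on the larva side or on the adult side, on placed chromosomes (left) and unplaced contigs (right), in the deposited lists, in lists cut to the 12331 intervals of highest −log10 p, and with fold enrichments of at least 3.59 in the lists that define the class. On placed chromosomes the adult side exceeds the larva side in all 3 settings, from 8587 against 419 to 1002 against 39, while on unplaced contigs the larva side is larger in lists of equal length, with 645 against 223.

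To set the sides against the depth, the fold enrichment was computed at which larva replicate 2, the shallowest of the 4 libraries, would call a summit at its lowest background with a Poisson probability of 95%. This fold was 3.59, against 3.09 in larva replicate 1, 2.65 in adult replicate 1 and 2.18 in adult replicate 2, and it covers counting error only, at the lowest background. Most of the adult side lay under it. On placed chromosomes 1002 of 8587 adult side regions (11.7%) had a fold enrichment of at least 3.59 in both adult lists, and 39 of 419 larva side regions (9.31%) had it in both larval lists. Those 1002 regions were 16.6% of the 6025 placed regions that reached this fold in both adult lists, whereas the 39 were 1.11% of the 3502 that reached it in both larval lists. On unplaced contigs the numbers were 155 of 3095 (5.01%) in the adult and 77 of 3324 (2.32%) in the larva. Fold enrichments of different libraries were not normalized to each other, and how far the adult excess at this fold still reflects depth was not tested.

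The strongest regions of both stages were open in the other stage too. Placed regions were ordered by the lower of their 2 fold enrichments in a stage. Of the 1000 strongest placed adult regions, 938 had an interval in both larval lists, 46 in 1 of them and 16 in neither. Of the 1000 strongest placed larval regions, all 1000 had an interval in both adult lists. Among the 3000 strongest, 2435 adult regions and 2948 larval regions were matched by both lists of the other stage, and 163 and 23 by neither. These numbers are not like for like. The strongest were taken from 17510 adult and 6090 larval regions, and the lowest fold among the 1000 was 6.30 and 5.58. Larval regions were also matched against the longer and deeper adult lists. At a fold enrichment of 4 or more in both replicates, 523 placed regions lay on the adult side and 16 on the larva side, and at 5 or more 104 and 3. No placed larva side region reached 6 in both larval lists, and 22 adult side regions did so in both adult lists.

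**Figure D2:**
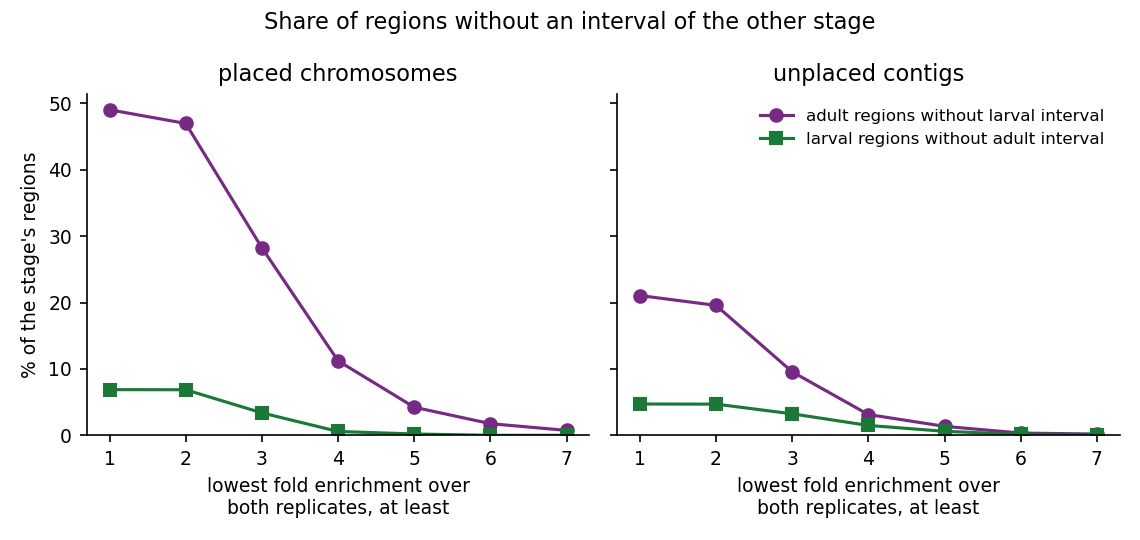
Percentage of a stage's regions (an interval in both of its lists) that had no interval in the other stage, against the fold enrichment that both replicates had to reach, on placed chromosomes (left) and unplaced contigs (right). On placed chromosomes the share falls from 49.0% to 4.23% in the adult and from 6.88% to 0.204% in the larva between a fold of 1 and a fold of 5.

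The adult side was led by regions with folds of about 7 to 11. The first on placed chromosomes, NC_015765.1 from 927793 to 928418, reached folds of 10.3 in adult replicate 1 and 7.91 in adult replicate 2, with pileups of 102 and 151 reads, and no larval interval. It had an interval in both pupal lists and in neither egg list. NC_015767.1 from 7513285 to 7513900, with folds of 7.38 and 7.08, was found outside the adult in pupa replicate 1 alone. These 2 regions were thus listed in late stages and not in the egg or the larva.

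For 4 of the 8 leading placed adult side regions, by contrast, all egg and pupal lists held an interval, so that the larval lists were the ones without it. NC_015769.1 from 1324357 to 1325036 had the highest fold of the group in adult replicate 1, 11.2, and 6.997 in adult replicate 2, with pileups of 135 and 164. NC_015764.1 from 13010519 to 13011380 had folds of 9.27 and 7.13. NC_015762.1 from 13298795 to 13299487 had 9.23 and 6.92, and NC_015763.1 from 4129486 to 4130282 had 8.61 and 6.82. All 4 were picked for a high lower adult fold, so both adult folds lay above 3.59 by that choice. The fold of 3.59 holds at the lowest background of larva replicate 2 alone.

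The remaining leading regions lacked an interval in a single egg list. NC_015765.1 from 12617125 to 12617585 had folds of 8.41 and 7.17 in the adult and intervals in egg replicate 1 and both pupal lists. NC_015766.1 from 8705561 to 8706107 had 6.78 and 6.77, with intervals in egg replicate 2 and both pupal lists. The 2 leading adult side regions on unplaced contigs were NW_003565404.1 from 271186 to 271672, with folds of 8.41 and 7.77, and NW_003565438.1 from 259657 to 260275, with 9.82 and 7.43. Both began far from the first base of their contigs and had an interval in all egg and pupal lists.

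The larva side was led by lower folds. NC_015773.1 from 8851784 to 8852215 reached folds of 5.39 in larva replicate 1 and 6.54 in larva replicate 2, from pileups of 39 and 34 reads, and no adult interval. NC_015771.1 from 4609349 to 4609733 had 6.88 and 5.23, and NC_015765.1 from 6567833 to 6568363 had 5.93 and 5.04. All 3 had an interval in every egg and pupal list, so the adult workers were the only samples without one.

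The next placed regions of the larva side had folds of at least 4.32 in both larval lists. NC_015770.1 from 1685247 to 1685773, with 4.59 and 4.86, was again listed in all egg and pupal samples. NC_015764.1 from 10936810 to 10937127, with 4.45 and 4.86, had intervals in both egg lists and in neither pupal list, the pattern of a region listed in the early stages. NC_015771.1 from 12769602 to 12770135 (5.93 and 4.80), NC_015763.1 from 8244460 to 8245007 (5.26 and 4.45) and NC_015773.1 from 3757971 to 3758300 (4.86 and 4.32) were each listed in 3 of the 4 egg and pupal samples.

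On unplaced contigs, both leading larva side regions began at the first base of their contig. NW_003570940.1 from 1 to 424 had folds of 7.01 and 8.41, and NW_003569972.1 from 1 to 683 had 6.88 and 6.73. With only the 5000 strongest intervals of each list, 8 of the 16 leading placed regions of both sides were still on their side. This count was not split by side, and the regions were picked for high folds in the same lists.

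Side regions were narrower and weaker than kept regions. The median width was 655 bp for kept regions of placed chromosomes, 380.0 bp for the larva side and 373 bp for the adult side. The median fold enrichment of placed adult side regions was 3.09 in adult replicate 1 and 2.71 in adult replicate 2, against 5.63 and 4.53 in kept regions. In the larva it was 3.10 and 3.18 on the larva side and 4.82 and 4.30 in kept regions. Several summits were found in 8.75% and 12.9% of placed adult side intervals in adult replicates 1 and 2, and in 33.5% and 38.5% of the kept ones. Kept regions need an interval in 4 lists, and joining 4 intervals widens a region, so width and fold are partly set by the rule.

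Side regions were spread over all placed chromosomes. The adult side made up between 23.2% of the regions, on NC_015779.1, and 31.6%, on NC_015771.1, with a median of 28.6% over 18 chromosomes. The larva side ran from 0.464% on NC_015778.1 to 1.997% on NC_015774.1. The most unequal split was that of NC_015778.1, with 191 adult side and 3 larva side regions, followed by NC_015777.1 with 196 and 4 and NC_015771.1 with 643 and 22. NC_015779.1 (142 and 10) and NC_015774.1 (451 and 31) were the least unequal. Each of these ratios rests on few larva side regions.

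The median distance from a placed adult side region to the nearest kept region was 11450 bp, and 8.13% of them lay within 1000 bp of one. For the larva side the median distance was 13324 bp and the share 5.01%, and kept regions had a median of 7521 bp to the next kept region. In windows of 100 kb the adult side averaged 3.99 regions, and the highest number was 16, found in 4 windows. These were NC_015766.1 from 3300001 to 3400000, NC_015772.1 from 16100001 to 16200000, NC_015773.1 from 5900001 to 6000000 and NC_015776.1 from 3300001 to 3400000. Such windows held 3 to 5 kept regions and at most 1 larva side region. The larva side reached 5 regions in NC_015776.1 from 8400001 to 8500000, and NC_015771.1 from 2600001 to 2700000 held the most kept regions, 17, with 2 on the adult side and none on the larva side.

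On unplaced contigs the classes differed in position. Of the 3573 kept regions there, 1808 (50.6%) began at the first base of their contig, against 24 of 191 (12.6%) on the larva side and 4 of 1119 (0.357%) on the adult side. A kept region takes the lowest start of intervals from 4 lists, so its share is partly set by the rule. The lists differed too, with such intervals making up 10.2% and 13.5% of larva replicates 1 and 2 and 4.89% and 3.72% of adult replicates 1 and 2. The kept regions lay on 2768 contigs and the larva side regions on 161, while the 1119 adult side regions lay on 264 contigs, with up to 127 on a single one. Reads were aligned to as many as 200 places by the study's settings, and repeated sequence was not analysed here.

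The egg and pupal lists, which the classes did not use, held an interval at nearly every kept region. Among placed kept regions the share was 95.8% and 98.4% in egg replicates 1 and 2, and 95.4% and 95.9% in pupa replicates 1 and 2. The placed adult side had 41.2% and 49.6% in the egg and 52.8% and 61.4% in the pupa. The placed larva side had 65.9% and 75.4% in the egg and 61.6% and 57.5% in the pupa. Both pupal lists had an interval at 48.5% of the placed adult side regions and both egg lists at 28.9%, while for the placed larva side these shares were 51.8% and 55.4%. Over all merged placed regions, where the corresponding shares were 52.6% and 43.2%, single lists had an interval at 53.7% and 57.8% in the egg and 57.1% and 62.5% in the pupa. With classes and overlaps taken from equal numbers of intervals in all 8 lists, and over all contigs, the shares were 29.4% in both pupal and 12.3% in both egg lists for the adult side, and 22.1% and 22.9% for the larva side. The shares over all regions were not computed in that setting. The pupal libraries had more reads in peak calling, 10.6 and 16.3 M reads, than the egg libraries, with 7.33 and 8.36 M reads, and their part in these shares was not tested.

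**Figure D3:**
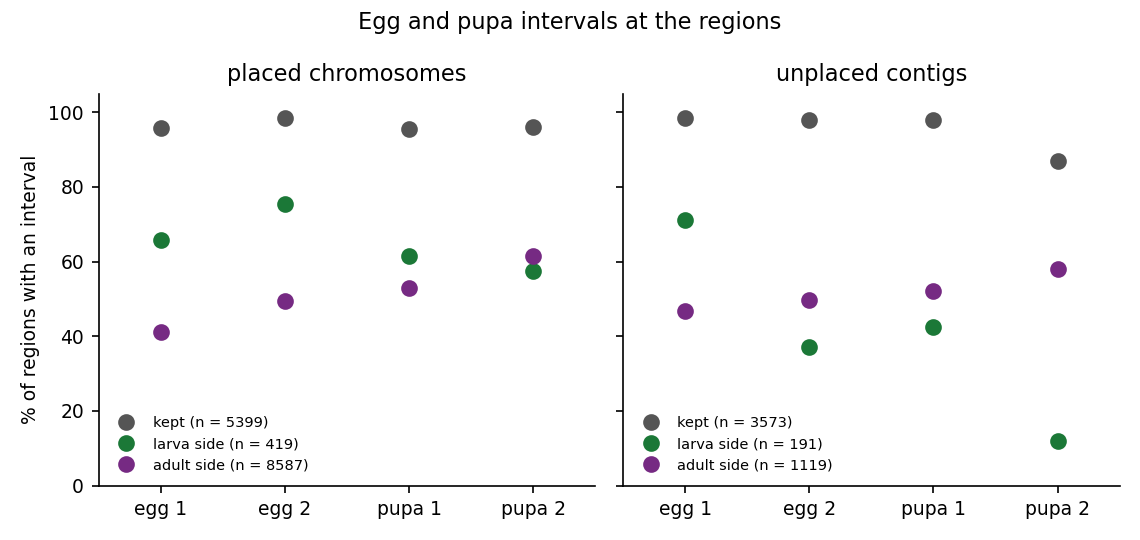
Percentage of kept, larva side and adult side regions with an interval in each egg and pupa list, on placed chromosomes (left) and unplaced contigs (right). Kept regions lie at 86.9% or more in every list, and the larva side of unplaced contigs falls from 71.2% in egg replicate 1 to 12.04% in pupa replicate 2. Over all unplaced regions, which are not drawn, the shares in these lists were 72.7% and 62.7%.

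Taken by pattern, 1900 of the 8587 placed adult side regions (22.1%) had an interval in both egg and both pupal lists, 966 (11.2%) in both pupal lists and no egg list, 308 (3.59%) in both egg lists and no pupal list, and 1741 (20.3%) in none of these lists. Over all 30123 placed regions these shares were 35.9%, 6.71%, 3.94% and 19.8%, so the last 2 shares of the adult side were near those of all regions. Of the 419 placed larva side regions, 153 (36.5%) had an interval in all 4 lists, 47 (11.2%) in both egg lists alone, 18 (4.30%) in both pupal lists alone and 31 (7.40%) in none. Among the 1002 placed adult side regions with folds of at least 3.59, both pupal lists had an interval at 69.7% and both egg lists at 46.2%, and 84 (8.38%) had none in egg or pupa. Over all 6025 placed regions at this fold in both adult lists the shares were 92.1% and 88.1%. Of the 39 larva side regions at this fold, both egg lists had an interval at 76.9% and both pupal lists at 56.4%, and none lacked an interval in all 4 lists. Over all 3502 placed regions at this fold in both larval lists the shares were 97.9% and 96.6%. On unplaced contigs, 12.04% of the larva side regions had an interval in pupa replicate 2 and 42.4% in pupa replicate 1, so this class differed strongly between replicates of a stage. Over all 7767 unplaced regions these shares were 62.7% and 70.0%, and over the unplaced kept regions 86.9% and 97.8%.

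Kept regions were then compared by their rank in each list. The highest fold enrichment of a region was ranked among the 8972 kept regions within each list and expressed as a percentile, which takes away differences of scale between libraries. Kept regions of unplaced contigs ranked high in the larva, with medians of 77.8 and 78.8 in larva replicates 1 and 2, against 62.2 and 60.2 in adult replicates 1 and 2. Those of placed chromosomes had medians of 37.2 and 38.4 in the larva and 44.4 and 45.1 in the adult. The 1808 kept regions at the first base of a contig ranked highest, with 88.7 and 88.9 in the larva and 80.7 and 77.2 in the adult. The larval and adult medians did not overlap in any of these groups.

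**Figure D4:**
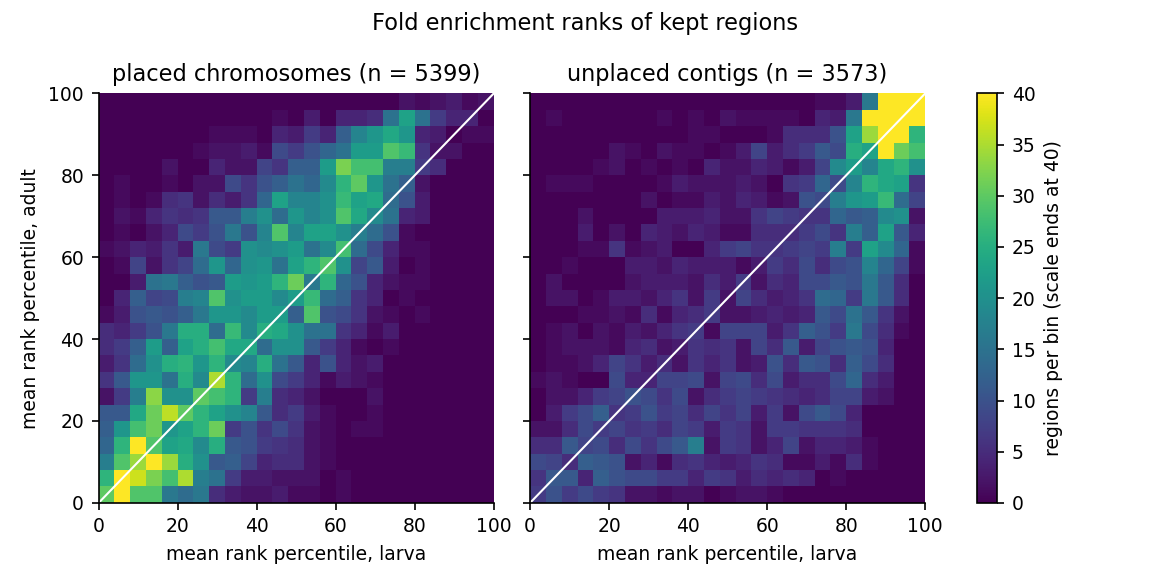
Mean rank percentile of the fold enrichment in the 2 adult lists against that in the 2 larval lists, for the 5399 kept regions of placed chromosomes (left) and the 3573 of unplaced contigs (right). The colour is the number of regions per bin and the white line marks equal ranks. Placed regions lie more often above the line, and many unplaced regions have a high larval rank at any adult rank.

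The ranks of both larval lists lay above those of both adult lists in 2641 of 8972 kept regions (29.4%), and the reverse held in 2987 (33.3%). On placed chromosomes these numbers were 880 (16.3%) and 2266 (42.0%) of 5399, and on unplaced contigs 1761 (49.3%) and 721 (20.2%) of 3573. Placed and unplaced regions share 1 ranking, so a higher rank of the one lowers the ranks of the other, and these opposite shifts are not separate results. With 2 lists a stage, ranks can also lie apart where the stages do not differ, so each of these groups may hold such regions. The placed regions with higher larval ranks were narrower, with a median of 590.0 bp, than those with higher adult ranks, with 692 bp. In the egg and the pupa, which did not enter this order, the placed regions with higher adult ranks had median rank percentiles of 49.2 and 62.4 in egg replicates 1 and 2 and 56.4 and 67.2 in pupa replicates 1 and 2. Those with higher larval ranks had 33.0 and 30.4 in the egg and 32.2 and 34.9 in the pupa. Placed regions whose larval and adult ranks overlapped had 33.8 and 39.7 in the egg and 36.1 and 42.7 in the pupa, nearer to the group with higher larval ranks. The regions with higher larval ranks had percentiles of 37.6 and 40.9 in the larva and 18.1 and 17.1 in the adult, and those with higher adult ranks 40.3 and 34.2 in the larva and 63.7 and 65.1 in the adult. The larval and adult ranks define these groups, so those percentiles are a description.

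A limma fit of normal scores of the ranks over all 8972 kept regions called 362 regions (4.03%) higher in the larva and 191 (2.13%) higher in the adult at a Benjamini-Hochberg adjusted p under 0.05. Of the 362 regions, 315 lay on unplaced contigs and 47 on placed chromosomes, and of the 191 regions, 152 lay on placed chromosomes and 39 on unplaced contigs. These calls depended on the setting. When placed chromosomes were ranked and fitted alone, limma called no region in either direction, with 535 and 510 regions at an unadjusted p under 0.05 and a lowest adjusted p of 0.0855. No region was called either when larva replicate 2, adult replicate 1 or adult replicate 2 was left out, and without larva replicate 1 the fit called 471 and 511. The Spearman correlation of fold enrichments over the placed kept regions was 0.917 between the adult lists and 0.706 between the larval lists, and it was 0.736 between larva replicate 1 and adult replicate 1. It is given as a description, since all regions of a list share 1 library, and the larval replicates were on placed chromosomes no closer to each other than larva replicate 1 was to adult replicate 1.

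**Figure D5:**
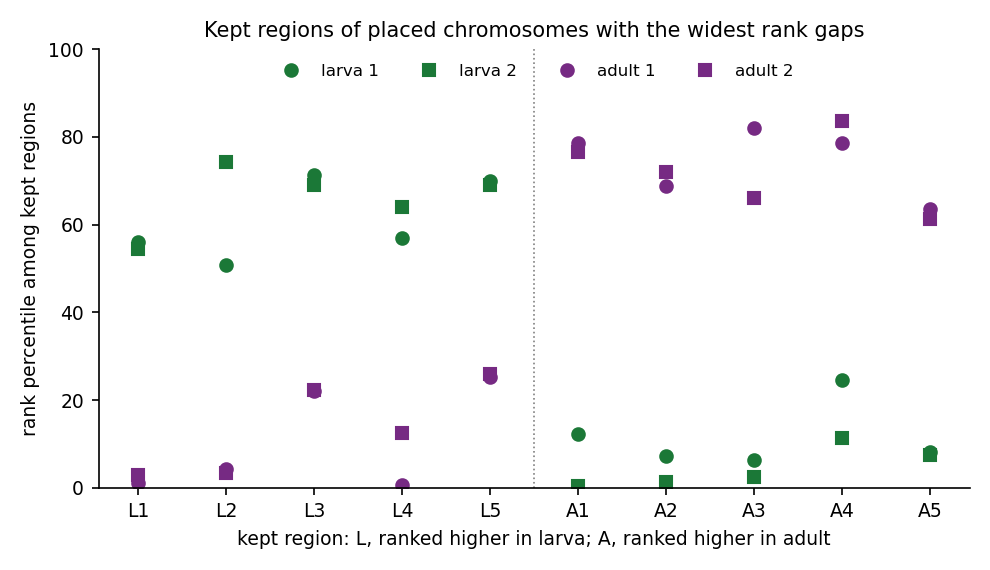
Rank percentile of the fold enrichment among all kept regions, for the 5 kept regions of placed chromosomes with the widest gap in favour of the larva (L1 to L5) and the 5 with the widest gap in favour of the adult (A1 to A5), in the order of the text. Points are samples, with circles for replicate 1 and squares for replicate 2, and the gaps between the stages run from 43.1 to 64.3 percentile points.

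The kept regions with the widest rank gaps on placed chromosomes show the size of such differences. They were picked by these ranks, so their values describe the extremes. NC_015765.1 from 5669290 to 5669717 ranked at the 56.0 and 54.4 percentiles in larva replicates 1 and 2 but at 1.16 and 2.84 in adult replicates 1 and 2. Its fold enrichments were 6.12 and 5.19 in the larva and 2.24 and 2.203 in the adult, a difference in rank score of 2.22 ± 0.251 (SE; limma, adjusted p = 0.0414). Both larval values of this region lay far above both adult values. NC_015779.1 from 3238955 to 3239644 had folds of 5.72 and 7.47 in the larva and 2.63 and 2.26 in the adult. NC_015770.1 from 1282056 to 1282471 had 7.87 and 6.54 against 4.07 and 3.42. These 3 regions and the next 2, NC_015772.1 from 9291846 to 9292260 (6.20 and 5.98 against 2.09 and 2.86) and NC_015768.1 from 18054801 to 18055439 (7.69 and 6.54 against 4.28 and 3.59), had an interval in every egg and pupal list.

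In ranks over all kept regions, placed and unplaced, the gaps in favour of the adult were wider. With placed chromosomes ranked alone, the rank scores of larva minus adult had similar sizes both ways. They ran from 1.81 to 2.72 in the named regions higher in the larva and from −2.89 to −1.77 in those higher in the adult. NC_015772.1 from 3422903 to 3423620 ranked at 78.5 and 76.6 in adult replicates 1 and 2 and at 12.2 and 0.385 in larva replicates 1 and 2. Its folds were 8.68 and 6.46 in the adult, from pileups of 87 and 123 reads, and 3.37 and 2.36 in the larva, from 24 and 12 reads (rank score of larva minus adult −2.67 ± 0.475, SE; limma, adjusted p = 0.0414). A pileup of 12 was the smallest that larva replicate 2 called at its lowest background, so the call in that list was near its limit. In larva replicate 1 the 24 reads lay above the smallest called pileup of 15, so the region was not close to the adult side. NC_015772.1 from 6476118 to 6476719 had folds of 7.66 and 6.13 in the adult and 3.05 and 2.49 in the larva. NC_015764.1 from 1281393 to 1282474 had 9.19 and 5.71 against 2.97 and 2.62. NC_015772.1 held another region of this group, from 14738364 to 14739053 (8.68 and 7.12 against 4.05 and 3.18), and NC_015762.1 from 12157572 to 12158162 (7.17 and 5.41 against 3.10 and 2.99) was the only one without an interval in an egg list, that of replicate 1.

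Some kept regions had high fold enrichments in every list. The highest lowest fold enrichment on placed chromosomes was that of NC_015769.1 from 9732857 to 9733834, with 14.5 and 14.8 in larva replicates 1 and 2 and 14.8 and 13.8 in adult replicates 1 and 2. Its pileups of 327, 320, 307 and 351 reads were close to the highest of each list, which ran from 336 to 385. A summit can reach at most 400 reads where 1 read per position and strand is counted, and whether that limit held here is not given, so these pileups do not compare strength between libraries of different depth. NC_015772.1 from 5486159 to 5487023 followed with 12.9 and 12.3 in the larva and 15.1 and 12.5 in the adult, and pileups of 110 and 65 against 174 and 240. In both regions the adult ranks lay above the larval ranks, at 96.7 and 99.5 against 91.8 and 91.8 in the first and 97.0 and 98.8 against 88.0 and 87.0 in the second. The limma fit called neither of them, with adjusted p of 0.129 and 0.0730.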

How the data were processed

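Whole-body ATAC-seq peak lists of 2 larval and 2 adult samples were compared, and the 4 egg and pupa lists were used only for overlaps. The authors filtered the reads with SOAPnuke, aligned them to Bter_1.0 with Bowtie2 2.2.5, keeping up to 200 alignments per read, and called peaks in each sample separately with MACS2 2.2.5, with a shift of -100 bp and an extension of 200 bp. The deposited columns used were the fold enrichment over the local background, a ratio, and −log10 of the p-value. The deposited score, which the authors' peak caller derives from −log10 of the q-value, was not used. Nothing was normalized between samples, and no control library or removal of duplicates is given in the sources used here.

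An interval with several summits was counted once, with its best summit. Placed chromosomes are the NC_ sequences and unplaced contigs the NW_ sequences. Whole pileups were recovered from (pileup + 1)/(background + 1) and the Poisson tail, within 0.001 of the deposited −log10 p-value. Reads used in peak calling follow from the lowest background, the extension and the genome size that the authors gave to MACS2. Ranks at kept regions were turned into normal scores and fitted with limma 3.58.1 in R 4.3.3, with Benjamini-Hochberg adjustment over all kept regions. List properties were compared by exact permutation tests. The steps were tested on simulated data.

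Named regions were, per side, the 8 placed and 2 unplaced regions whose lower fold of the 2 replicates was highest and, among placed kept regions, the 5 widest rank gaps each way and the 2 with the highest lowest fold. Members, rules and settings were chosen with earlier results of these data known. Alternatives covered list length, thresholds, joining, the ranked value, contigs and left-out samples. The detection fold, the recovered pileup, equal numbers of placed intervals, and fits without first-base regions were added after the data were seen. Sequences and genes of Bter_1.0 were not used here. The versions were Python 3.11.15, scipy 1.17.1, numpy 2.4.6, matplotlib 3.10.9 and pandas 2.3.3.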

Additional observations from a re-analysis of the deposited data

How the results depend on the processing

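On placed chromosomes the adult side exceeded the larva side in every setting run. The ratio was 20.5 in the deposited lists, 2.14 at equal numbers of intervals, 1.52 at equal numbers of placed intervals, 5.59 with the top 5000, 25.7 at the detection fold, 804 (3216 against 4) at −log10 p of 20 or more, and 5.86 on unplaced contigs. With the own stage at 20 or more and the other stage absent, 648 placed regions stood against 0, so no ratio is given. A −log10 p of 20 was reached by 20.6% and 10.7% of the placed intervals of larva replicates 1 and 2. In adult replicates 1 and 2 these shares were 28.6% and 30.2%. In the setting with the ratio of 804, an interval under 20 counts as absent. In the same order of settings (equal numbers, equal placed numbers, top 5000, detection fold, 20 or more), the adult side had 1914, 1342, 728, 1157 and 3666 regions and the larva side 1437, 880, 804, 116 and 149. The kept regions, 8972 over all contigs in the deposited lists, numbered 3931, 2842, 5543 and 2711 in the last 4 of them. The counts at equal placed numbers (1342, 880 and 3931) are of placed regions alone, of which 5399 were kept in the deposited lists. With the other stage absent the sides had 739 and 3 regions. Requiring 50% overlap, joining over 200 bp and windows around summits moved no count over all contigs or on placed chromosomes by over 1.5 times, but windows around summits raised the unplaced larva side from 191 to 347. On unplaced contigs the larva side was the larger one at equal numbers (645 against 223) and with the top 5000 (693 against 108). Both cuts ran over all contigs, and the larval lists held a larger unplaced share. Leaving out 1 replicate gave 835 to 2410 larva side regions, 10238 to 17117 adult side regions, 9261 to 12607 kept regions and a ratio of 4.87 to 29.6. The larva side rose most without larva replicate 2 (2410), larva replicate 1 (1505) or adult replicate 2 (945), and the adult side without adult replicate 1 (17117), and a side then needs only 1 list of the stage left short.

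The difference in median width, 16 bp in favour of the larva, turned to -16.5 bp on placed chromosomes and ran from -1 to 33 bp with a replicate left out. Numbers of intervals, covered length and unplaced share kept their direction.

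Calls on ranks of kept regions, 362 higher in the larva and 191 in the adult, became 19 and 205 with ranks over whole lists, 811 and 437 with −log10 p, 1723 and 414 with log2 fold enrichment, 1644 and 1292 with the recovered pileup, 104 and 51 without first-base regions, and 2641 and 2987 when ranks only had to be apart. With the lowest summit of a region limma called 0 and 0 (1008 and 895 at an unadjusted p under 0.05), and on placed chromosomes alone 0 and 0. Leaving out 1 replicate gave 0 to 471 and 0 to 511. A stage left with 1 sample is assumed to vary like the other. At an unadjusted p under 0.05 the fits with no call had 1264 and 1155 regions without larva replicate 2, 1122 and 742 without adult replicate 1, and 975 and 525 without adult replicate 2. With the replicate block the fit called 1068 and 799. The samples share only a number (correlation of deviations 0.118), so the block is given for completeness. None of the 10 named kept regions changed direction in a setting where it was fitted. They were picked because both larval ranks lay apart from both adult ranks, so leaving out a replicate could not turn their direction. Several other settings used the same fold enrichments again, so the kept direction is a description. All 10 lost their call on placed chromosomes alone and with the lowest summit of a region. With ranks over whole lists 5 lost it, and without first-base regions 1 did. At equal numbers of top intervals only 4 of the 10 were still kept, and these 4 were called.

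Both egg lists had an interval at 29.3% of adult side and 47.9% of larva side regions, and both pupal lists at 48.2% and 38.9%. At equal numbers of intervals in all 8 lists these shares were 12.3%, 22.9%, 29.4% and 22.1%. On placed chromosomes the larva side had 55.4% and 51.8%. Leaving out 1 replicate gave 22.2% to 49.6% and 26.9% to 67.5% for the egg, and 37.4% to 61.0% and 29.3% to 55.6% for the pupa. At the lowest background the smallest fold called was 2.16 and 2.43 in larva replicates 1 and 2, against 1.89 and 1.67 in adult replicates 1 and 2. The part of depth in the shorter larval lists was not tested. With 2 samples per stage, the main fit on ranks has 2 residual degrees of freedom.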
